A study of Mus musculus with 15 samples.

Results

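Gene expression of sorted kidney fibroblasts 14 days after folic acid was compared with that of the same kind of cells from uninjured kidney. The comparison used 6 of the 15 arrays of the study, the 3 titled with folic acid at 14 days and the 3 titled as uninjured, chosen by their labels alone. The cells were PDGFra-positive fibroblasts, isolated by fluorescence-activated sorting, and the mice were adult C57BL/6. In the injured group, acute kidney injury was induced with folic acid and the sorted cells came from day 14 (arrays 7, 8 and 9). The other group had no injury (arrays 13, 14 and 15), and both groups shared strain, sort, RNA amplification and biotin label. No transgene, deletion or vehicle is named for either group, and whether each array came from its own animal is not stated, so the p-values reflect how these samples vary, in part perhaps for technical reasons. Levels are log2 intensities of 1 probe set per gene, and differences are day 14 minus uninjured on that scale, with the standard error (SE) and the adjusted p from limma. One log2 unit is a fold of 2, and genes with an adjusted p under 0.05 are the calls.

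A high dose of folic acid injures the tubule epithelium, and the kidney then partly repairs and partly scars. Interstitial fibroblasts, which carry the growth factor receptor PDGFRa, make the collagens and glycoproteins of that scar, and macrophages gather beside them. Class II antigen presentation molecules, best known from macrophages, dendritic cells and B cells, display peptides to helper T cells.

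Of 13523 genes tested, 2753 had an unadjusted p under 0.05 in limma, in either direction. By the adjusted p, 767 were called at day 14, which is 5.67% of the genes tested. There were 568 higher genes (4.2%) and 199 lower genes (1.47%). The higher genes had a median difference of 1.42, and 130 of them differed by at least 4-fold and 17 by at least 16-fold. The lower genes had a median of -0.87, and 4 differed by at least 4-fold. In none of the called genes did the 2 sets of 3 arrays overlap, but across all genes tested 15.5% had every day 14 array above every uninjured array and 12.2% had every one below. The share of calls that were higher, 74.1%, was 59.4% after quantile normalization and 84.7% when only the 6 arrays were fitted. More than 1 probe set was present for 298 of the higher genes, and another probe set was called higher for 80 of them and lower for 2. The higher genes Acta2, Serpinh1, Loxl1, Tgfbi, Ccl9, Cxcl16 and Clca3a1 had 1 other probe set each, which was not called. Nkd2 had 2 others, neither of them called. Among the lower genes 110 had more than 1, and another probe set was called lower for 9 of them and higher for 1. The call held without each of the 6 arrays in turn for 248 of the higher and 39 of the lower genes. Leaving out day 14 array 7 or 9 gave 481 or 440 calls, and leaving out uninjured array 13, 14 or 15 gave 460, 350 or 412.

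**Figure D1:**
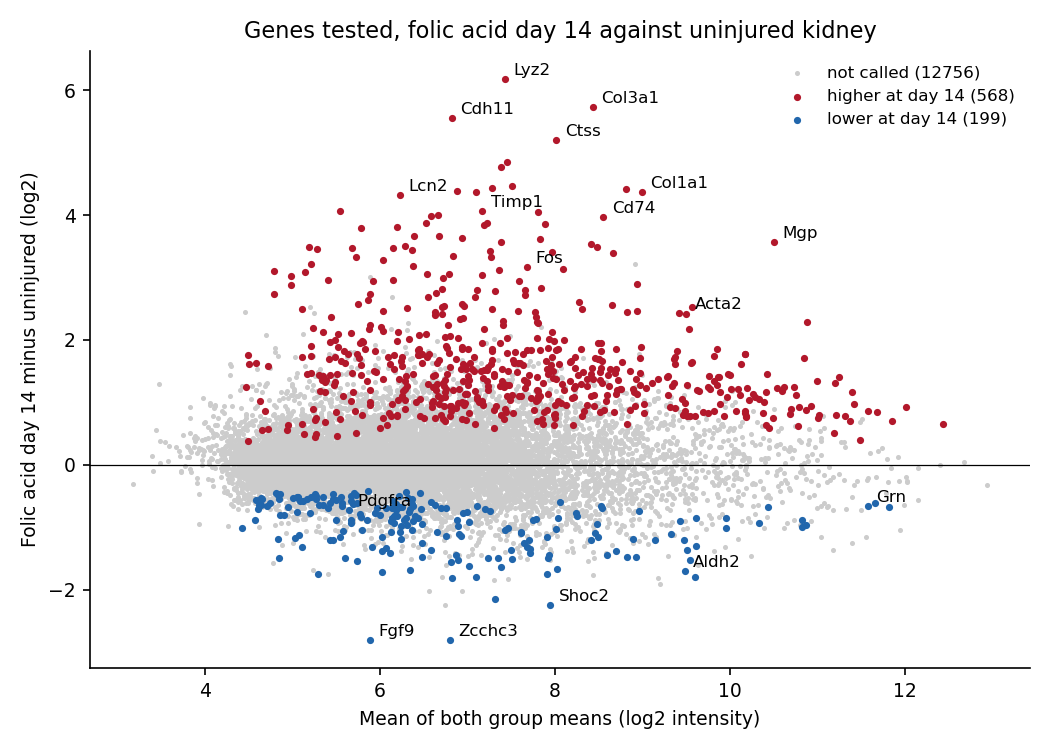
Each point is 1 of the 13523 genes tested, with the mean of both group means (log2 intensity) on the horizontal axis and the difference, folic acid day 14 minus uninjured (log2), on the vertical axis. The 568 genes called higher reach 6.18 and the 199 called lower reach -2.80, and Pdgfra lies among the genes not called.

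The day 14 arrays were less alike than the uninjured arrays. The correlation over genes (not independent replicates) lay between 0.889 and 0.901 among day 14 arrays and between 0.938 and 0.976 among uninjured arrays, and the median SD of a gene was 0.298 at day 14 and 0.186 in uninjured kidney. Day 14 array 8 was the array nearest to uninjured kidney in 375 of the 568 higher genes (66.0%). Pdgfra, the gene of the sort marker, stood at 5.00, 4.24 and 6.60 in day 14 arrays 7, 8 and 9, against 6.43, 5.68 and 5.91 in uninjured arrays 13, 14 and 15. These levels overlapped (log2 -0.72, SE 0.59, adjusted p = 0.54) and lay near the array medians of 4.93 to 5.06 and upper quartiles of 6.18 to 6.27. Proximal tubule markers, which a fibroblast sort is meant to leave out, were bright: their mean was 9.52, 9.72 and 7.55 in the day 14 arrays, against 8.88, 9.24 and 10.20 in the uninjured arrays. In such bulk samples fewer cells of a type and less RNA per cell cannot be told apart.

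Scar matrix genes were among the highest differences at day 14. Of 16 fibrillar and associated collagens 11 were higher and none lower, with a median of 2.26 against 0.02 over all genes tested. Col3a1, a chain of fibrillar collagen III, stood at 11.31, 10.68 and 11.89 in the day 14 arrays, against 6.11, 6.26 and 4.33 in the uninjured arrays (52.8-fold, log2 5.72, SE 0.42, adjusted p = 9.51e-06). Col1a1, a chain of collagen I, stood at 11.25, 10.62 and 11.64 in the day 14 arrays, against 6.72, 6.85 and 6.86 in the uninjured arrays (log2 4.36, SE 0.22, adjusted p = 3.43e-07). In both genes every day 14 array lay more than 3 log2 units above every uninjured array, with array 8 the lowest of the injured group. Col15a1, which links basement membranes to the interstitium, rose by log2 4.47 (SE 0.32), and the microfibrillar chains Col6a1 and Col6a2 rose by 4.37 (SE 0.26) and 3.87 (SE 0.28). Col5a1, Col5a2, Col6a3 and Col18a1 rose by log2 2.61, 2.94, 2.57 and 1.96. Col1a2 (log2 0.16), the partner chain of Col1a1, Col12a1 (0.26) and Col5a3 (0.75) did not pass, and the probe set of Col1a2 lay at 3.73 to 4.47 at day 14 and 3.71 to 4.05 in uninjured kidney, below the array medians.

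Genes that fold, cut and crosslink collagen differed less. In the collagen processing list 4 of 16 were higher and none lower (median 0.62). Serpinh1, the collagen chaperone of the endoplasmic reticulum, rose by log2 2.42 (SE 0.34, adjusted p = 0.00145), and the crosslinking oxidase gene Loxl1 rose by 2.54 (SE 0.45, adjusted p = 0.00648). Pcolce, an enhancer of procollagen cleavage, rose by log2 1.83 and Crtap, part of a prolyl hydroxylase complex, by 1.29. Lox (log2 1.11, adjusted p = 0.32), Loxl2 (1.21, adjusted p = 0.21) and Plod2 (0.59, adjusted p = 0.25) did not pass. The Pcolce call was lost without any 1 of arrays 7, 9 and 15, and 1 gene of the list was called when only the 6 arrays were fitted.

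Proteoglycan, microfibril and adhesive glycoprotein genes rose beside the collagens. Of 8 small leucine-rich proteoglycans 4 were higher: Dcn (log2 2.72, SE 0.46), Prelp (2.99, SE 0.51), Ogn (2.18, SE 0.41) and Bgn (1.23, SE 0.33), which bind and space collagen fibrils. Elastic fibre and microfibril genes were higher in 7 of 13 cases, none lower, with a median of 1.59. Ltbp2, a microfibril-associated protein, stood at 9.16, 7.86 and 8.71 in the day 14 arrays, against 4.83, 4.46 and 4.49 in the uninjured arrays (log2 3.98, SE 0.34, adjusted p = 3.84e-05). The groups were thus separated by 3 log2 units even at array 8. Mfap4 (log2 3.66), Mfap5 (2.74), the fibrillin Fbn2 (1.97) and the fibulins Fbln1 (1.80) and Fbln5 (1.86) also rose. The elastin gene Eln itself differed by 0.43 (adjusted p = 0.46). Bgn, Mfap5 and Fbln5 each lost their call without any 1 of 4 arrays and Fbn2 without array 14, and the count of this microfibril list was 4 without array 7, 13 or 15.

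Matricellular genes, whose products modulate contact between cells and matrix, were higher in 7 of 15 cases (median 1.62). Fn1, fibronectin, stood at 9.77, 8.87 and 10.25 in the day 14 arrays, against 6.13, 6.24 and 5.70 in the uninjured arrays (log2 3.61, SE 0.33, adjusted p = 6.95e-05). Mgp, an inhibitor of matrix calcification, stood at 12.48, 11.94 and 12.44 at day 14, against 9.02, 9.48 and 7.65 in uninjured kidney (log2 3.57, SE 0.35). Smoc2, Matn2, Thbs2, Sparcl1 and Sparc rose by log2 3.33, 3.21, 2.12, 1.62 and 1.25. Postn and Tnc, both associated with active scarring, did not pass: Postn stood at 7.16, 5.10 and 7.66 at day 14 and 4.98, 5.15 and 4.75 in uninjured kidney (adjusted p = 0.293), overlapping at array 8, and Tnc differed by log2 2.02 (SE 0.57, adjusted p = 0.0617). In the basement membrane list 1 of 13 was higher, the laminin chain Lama2 (log2 1.57), whose call was lost without any 1 of 5 arrays. Over all genes tested 4.2% were higher. The chains of collagen IV, Col4a1 and Col4a2, differed by 0.29 and 0.97 and did not pass.

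**Figure D2:**
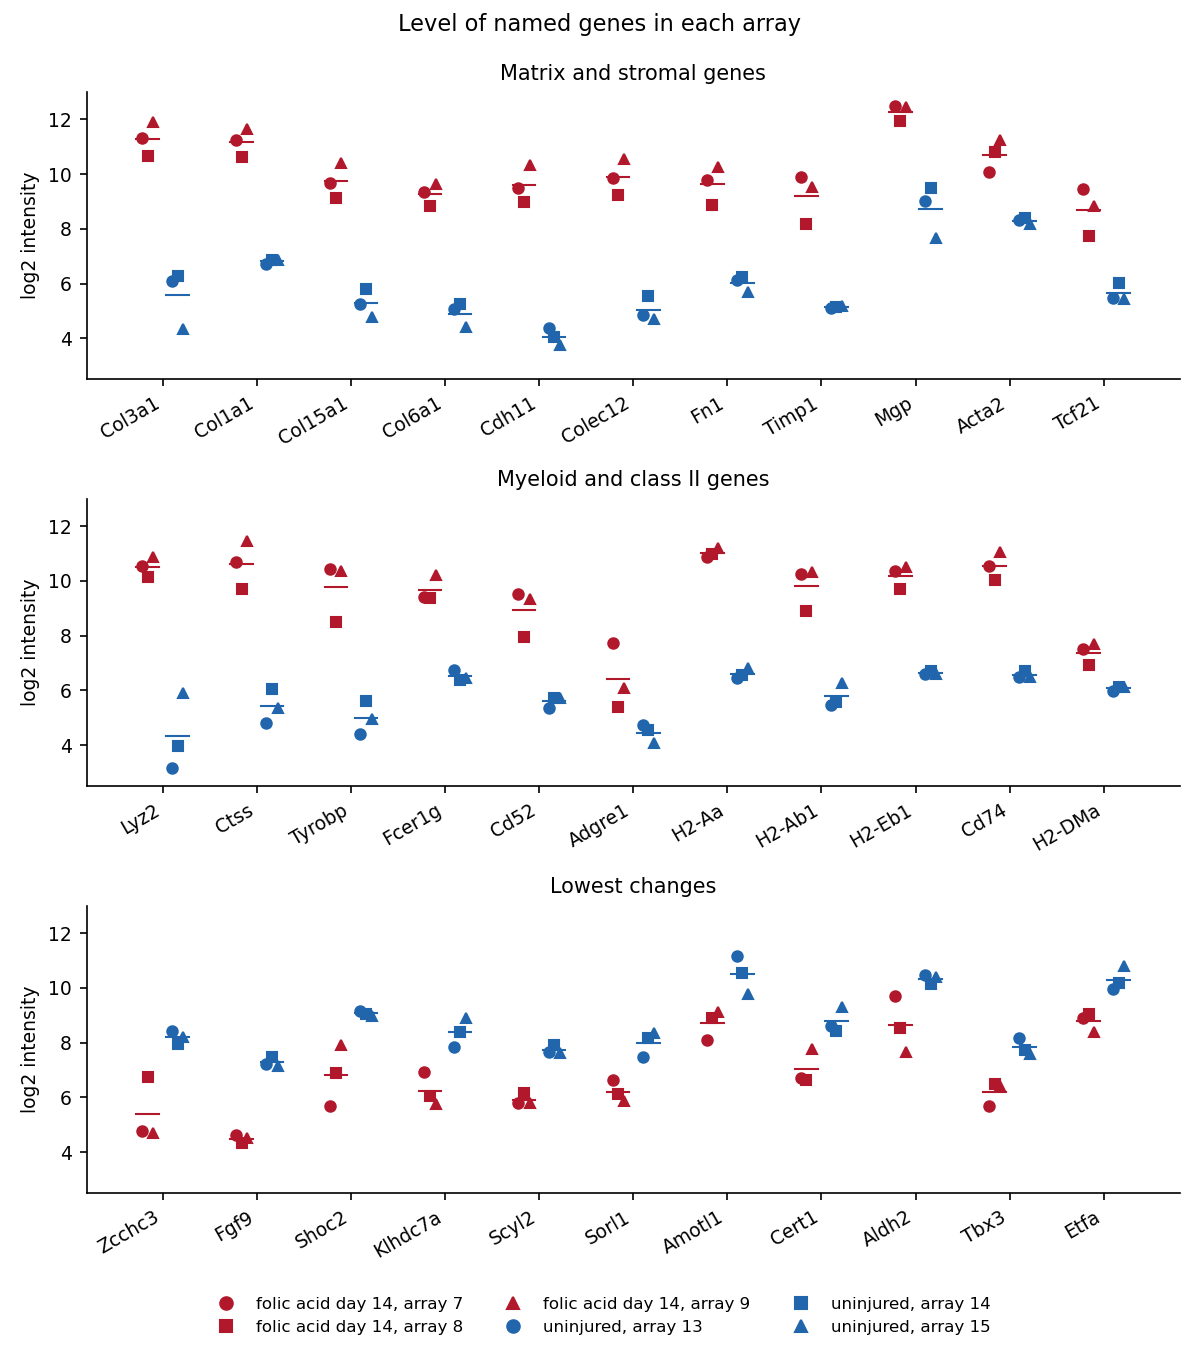
Log2 intensity of 33 genes in each array, with folic acid day 14 arrays 7, 8 and 9 in red on the left and uninjured arrays 13, 14 and 15 in blue on the right of each gene, and short lines at the group means. In the upper and middle panels all day 14 arrays lie above all uninjured arrays, array 8 often lowest among them, and in the lower panel all lie below.

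Matrix proteases and their inhibitors split, with 7 higher and 2 lower of 19 (median 0.89). Timp1, an inhibitor of metalloproteases, stood at 9.90, 8.16 and 9.54 in the day 14 arrays, against 5.11, 5.14 and 5.17 in the uninjured arrays (log2 4.06, SE 0.38, adjusted p = 6.95e-05). Mmp12, the macrophage metalloelastase, stood at 6.64, 5.31 and 7.32 at day 14 and at 3.43, 3.53 and 3.69 in uninjured kidney (log2 2.87, SE 0.36, adjusted p = 0.000696). In both genes array 8 was the lowest of the injured arrays and still above the uninjured ones. Serpinf1, an antiangiogenic serpin, rose by log2 3.28, and the proteases Mmp2, Mmp11, Mmp14 and Mmp23 rose by 1.52, 1.76, 1.55 and 2.13. Timp3 (log2 -1.01) and the plasminogen activator Plau (-1.10) fell. Instead of 9 genes, 4 or 3 were called when day 14 array 7 or 9 was left out, and 3 or 4 when uninjured array 14 or 15 was left out.

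The fibroblast marker genes were unequal. Of 23 resident and adventitial fibroblast genes 5 were higher and none lower, with a median of 0.29, and the list mean was 7.49, 6.64 and 7.26 in the day 14 arrays, against 6.33, 6.25 and 6.04 in the uninjured arrays. Cdh11, a cadherin of mesenchymal cells, stood at 9.48, 8.97 and 10.35 at day 14, against 4.36, 4.04 and 3.74 in uninjured kidney (47.1-fold, log2 5.56, SE 0.28, adjusted p = 3.43e-07). Colec12, a scavenger receptor, rose by 4.85 (SE 0.30), Islr by 3.50 (SE 0.52) and Dpt, a collagen-binding matrix protein, by 3.43 (SE 0.91). Tcf21, a transcription factor of kidney stroma and podocytes, stood at 9.47, 7.73 and 8.85 at day 14, against 5.48, 6.02 and 5.45 in uninjured kidney (log2 3.03, SE 0.45, adjusted p = 0.00214). Thy1, a surface glycoprotein of fibroblasts and T cells, rose by 3.06 and the integrin subunit gene Itgb5 by 1.66. Cdh11, Thy1 and Itgb5 were the 3 higher of 15 mesenchymal adhesion genes, with none lower (median 0.67). Tcf21 was the 1 call among 19 stromal transcription factors (median 0.07) and among 8 podocyte genes (median -0.54), where 5.67% of all genes tested were called. In the adhesion and stromal lists Itga8 (-1.01) and Nr2f1 (-1.31) did not pass. Aldh1a2, an enzyme of retinoic acid synthesis, rose by log2 4.44 (SE 0.22, adjusted p = 3.43e-07). By contrast Pdgfrb (log2 -0.20, adjusted p = 0.808), Cd34 (0.56), Pi16 (-0.06) and Meg3 (-0.14) did not pass, and the call of Dpt was lost without any 1 of 5 arrays.

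Contractile genes were called in 2 of 17 cases, both higher, where 4.2% of all genes tested were higher. Acta2, smooth muscle actin, the usual marker of myofibroblasts, stood at 10.07, 10.79 and 11.26 in the day 14 arrays, against 8.31, 8.39 and 8.16 in the uninjured arrays (log2 2.42, SE 0.23, adjusted p = 7.35e-05). Here array 8 was not the lowest injured array. The intermediate filament gene Vim rose by 1.13 (SE 0.26, adjusted p = 0.0232), with its call lost without array 8, 9 or 14. The other 15 of 17 contractile genes did not pass, among them Tpm4 (log2 1.55), Flna (1.54), Tpm2 (0.98), Myl9 (-0.05) and Cnn1 (0.24). None of 10 pericyte and vascular smooth muscle genes was called (1 higher and 1 lower at limma's unadjusted p under 0.05), with Notch3 at 0.69 (adjusted p = 0.164) and Higd1b at -0.49 (adjusted p = 0.0617). Over all 13523 genes tested, 2753 had such an unadjusted p, in either direction.

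Genes of myeloid cells also rose. Of 27 macrophage and dendritic cell genes 15 were higher and none lower, with a median of 1.99. Lyz2, the lysozyme of macrophages, had the highest difference of all genes named, at 10.55, 10.15 and 10.87 in the day 14 arrays, against 3.17, 3.96 and 5.90 in the uninjured arrays (72.5-fold, log2 6.18, SE 0.51, adjusted p = 2.39e-05). Tyrobp, a signalling adaptor of myeloid receptors, stood at 10.43, 8.51 and 10.38 at day 14, against 4.40, 5.63 and 4.96 in uninjured kidney (log2 4.77, SE 0.55, adjusted p = 0.00039). The related adaptor gene Fcer1g rose by 3.13, Cd52 by 3.33, the pore-forming protein gene Mpeg1 by 3.34 and the endotoxin co-receptor gene Cd14 by 1.99. Adgre1, the F4/80 antigen, stood at 7.75, 5.40 and 6.09 at day 14, against 4.73, 4.54 and 4.09 in uninjured kidney (log2 1.96, adjusted p = 0.0192). Ptprc, the common leukocyte antigen CD45, did not pass (log2 3.01, SE 0.87, adjusted p = 0.0653), nor did Csf1r (0.66), Cd68 (1.17), Cx3cr1 (0.54) or Spi1 (0.72), and Itgam and Cd163 were too dim to test.

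The mean of the macrophage list was 7.87, 6.58 and 7.95 in the day 14 arrays, against 5.18, 5.21 and 5.25 in the uninjured arrays, so array 8 was the lowest of the injured arrays in this list, as in the collagen, collagen processing, proteoglycan, microfibril, matricellular and protease lists but not in the basement membrane list. Its part in the matrix results was not tested, because the groups do not overlap in it. With this mean as a covariate, which extrapolates across that gap, 11 genes were called over all genes and 2 of the 16 collagens. The count of 15 was 9 without day 14 array 9, and 9 and 8 without uninjured arrays 14 and 15. None of 8 lymphocyte genes and none of 6 neutrophil genes was called. Limma's unadjusted p was under 0.05 for 1 lower lymphocyte gene and 2 higher neutrophil genes, and for 2753 of all 13523 genes tested, in either direction. S100a8, an alarmin of neutrophils and monocytes, stood at log2 2.10 (SE 0.58, adjusted p = 0.0566) and the T cell receptor component Cd3d at -0.31 (adjusted p = 0.224).

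**Figure D3:**
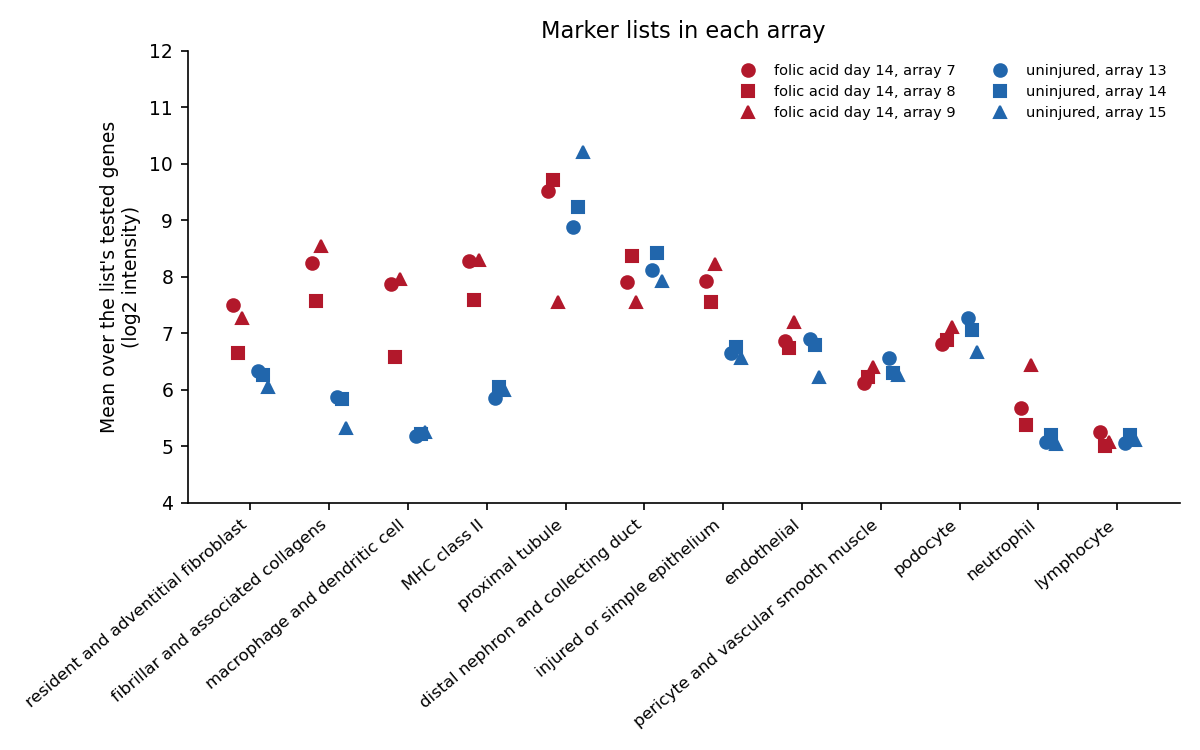
Mean log2 intensity over the tested genes of 12 marker lists in each array, folic acid day 14 in red on the left and uninjured in blue on the right. The macrophage means of 7.87, 6.58 and 7.95 at day 14 lie above the uninjured 5.18 to 5.25, and the proximal tubule means overlap, with day 14 array 9 lowest at 7.55.

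Class II antigen presentation genes rose in part. Of 9 genes 5 were higher and none lower. H2-Aa, the alpha chain of the I-A molecule, stood at 10.87, 11.00 and 11.20 in the day 14 arrays, against 6.45, 6.57 and 6.81 in the uninjured arrays (21.3-fold, log2 4.41, SE 0.17, adjusted p = 5.32e-08). Its beta chain gene H2-Ab1 stood at 10.26, 8.89 and 10.34 at day 14, against 5.48, 5.58 and 6.28 in uninjured kidney (log2 4.05, SE 0.35, adjusted p = 3.84e-05). H2-Eb1, the beta chain of I-E, stood at 10.35, 9.72 and 10.50 at day 14, against 6.60, 6.72 and 6.61 in uninjured kidney (log2 3.54, SE 0.20, adjusted p = 1.31e-06). For H2-Aa array 8 was not the lowest injured array, unlike for H2-Ab1 and H2-Eb1. Cd74, the invariant chain that guides class II molecules, rose by log2 3.97 (SE 0.30) and H2-DMa, which helps to load peptide, by 1.31 (SE 0.33). H2-Ea, a gene of the I-E alpha chain, is outside this list and is named after its values were seen. Its probe set stood lower, with means of 5.88 at day 14 and 6.72 in uninjured kidney (log2 -0.85, SE 0.17, adjusted p = 0.0131). Whether this probe set measured transcripts of H2-Ea in these C57BL/6 mice was not tested. Ciita, the coactivator that switches on class II genes, did not pass: it stood at 4.96, 4.99 and 4.94 at day 14, against 5.42, 5.70 and 5.31 in uninjured kidney (log2 -0.52, SE 0.14, adjusted p = 0.0506), levels near the array medians.

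The promoters of H2-Aa and H2-Eb1 are shown because both genes rose and hold a match to at least 1 of 2 short motifs, in capitals. They run from 250 bases before to 50 bases after the start of each gene in RefSeq GRCm38.p6, H2-Aa at chr17:34287774-34288073 on the minus strand and H2-Eb1 at chr17:34305617-34305916 on the plus strand. Of the other class II genes called higher, H2-DMa had 2 entries in the promoter table used here, without a match and not shown, and H2-Ab1 and Cd74 had none.
H2-Aa: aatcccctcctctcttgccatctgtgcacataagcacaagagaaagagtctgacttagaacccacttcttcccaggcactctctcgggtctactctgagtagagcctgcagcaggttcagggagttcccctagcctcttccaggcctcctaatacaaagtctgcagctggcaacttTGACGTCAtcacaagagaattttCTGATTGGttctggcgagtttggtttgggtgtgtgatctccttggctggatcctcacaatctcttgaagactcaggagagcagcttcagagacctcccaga
H2-Eb1: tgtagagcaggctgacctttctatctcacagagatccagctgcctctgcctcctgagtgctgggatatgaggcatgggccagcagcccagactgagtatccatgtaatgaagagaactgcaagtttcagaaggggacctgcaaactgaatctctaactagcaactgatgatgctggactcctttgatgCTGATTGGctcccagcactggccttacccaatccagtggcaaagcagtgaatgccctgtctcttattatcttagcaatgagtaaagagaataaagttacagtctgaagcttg
CTGATTGG, the inverted CCAAT sequence known from the Y box of class II promoters, begins 51 bases before the start in H2-Aa and 62 bases before it in H2-Eb1. TGACGTCA, a palindrome known from cyclic AMP response elements, begins 74 bases before the start in H2-Aa. Both strands were searched, the motifs do not overlap, and 4.1% and 1.79% of 32851 promoters of the same length hold CTGATTGG and TGACGTCA in that order. A match describes the sequence and shows no binding.

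Complement and chemokine genes were called in part. Of 14 complement genes 5 were higher and none lower (median 0.95). C1qc, a chain of the C1q complex made by macrophages, stood at 10.17, 7.33 and 9.82 in the day 14 arrays, against 5.20, 5.25 and 5.35 in the uninjured arrays (log2 3.84, SE 0.67, adjusted p = 0.00601). C1qb rose by 3.18, the inhibitor gene Serping1 by 2.45, the properdin gene Cfp by 1.77 and the receptor gene C3ar1 by 0.75, and C1qa (log2 1.92, adjusted p = 0.086) did not pass. The complement count was 8 without array 8 and 3 without array 9, 14 or 15. Of 24 chemokine and cytokine genes 8 were higher and none lower (median 1.51), a count that was 13 without array 8 and 5 without array 14. The alarmin gene Il33 stood at 8.34, 6.67 and 8.04 at day 14, against 3.82, 3.79 and 4.07 in uninjured kidney (log2 3.79, SE 0.43, adjusted p = 0.000338). Ccl9, Cxcl14, Cxcl16, Ccl6, Ccl5 and Ccl19 rose by 3.57, 3.64, 2.44, 2.08, 1.78 and 1.68, and Cx3cl1 by 1.43. Ccl2, the monocyte attractant, stood at 7.44, 5.65 and 5.43 at day 14 and 4.82, 5.46 and 5.54 in uninjured kidney (adjusted p = 0.448), with the groups overlapping.

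In the interferon response list 2 of 20 were higher, the guanylate-binding protein gene Gbp2 (log2 2.57, SE 0.35) and Ifitm1 (3.12, SE 0.62), while Ifit1 (-0.58), Irf7 (0.33) and Rsad2 (-0.46) did not pass. Tapbp, which helps to load class I molecules, was the 1 gene of 10 higher in the class I list (log2 1.13), and H2-K1 (-0.28) and H2-D1 (-0.12) did not pass. Among all genes tested 4.2% were higher. Of 21 lysosome genes 7 were higher and 1 lower (median 0.70). The lysosomal protease gene Ctss, active in class II antigen processing, stood at 10.69, 9.69 and 11.47 at day 14, against 4.81, 6.07 and 5.37 in uninjured kidney (log2 5.20, SE 0.51, adjusted p = 0.000105). Ctsc, Ctsd, Ctsa, Laptm5, Gusb and Npc2 rose by 2.42, 1.70, 1.77, 2.04, 1.17 and 0.85, and the progranulin gene Grn fell by 0.66 on the log2 scale. The lysosome count of 8 was 5 without array 7, 13 or 14, and the calls of Ifitm1 and Grn were lost without 1 and any 1 of 3 arrays.

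**Figure D4:**
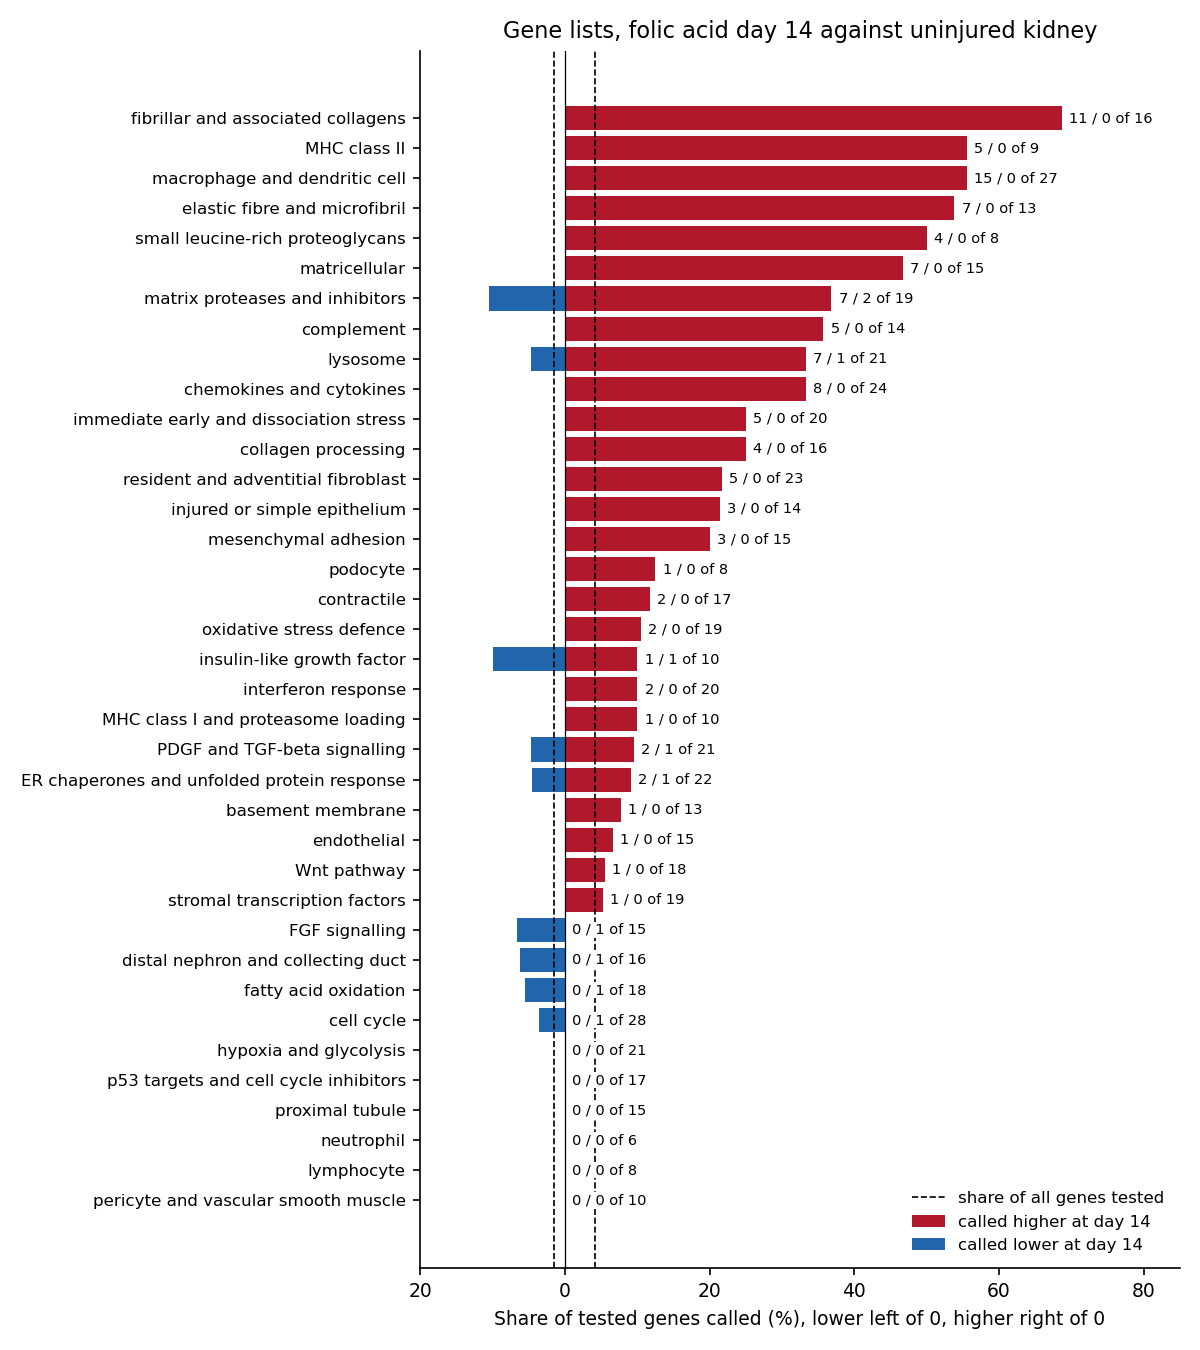
Share of each list's tested genes called higher (red, right of 0) or lower (blue, left of 0) in folic acid day 14 against uninjured kidney, for lists with at least 5 tested genes. The counts beside the bars give higher / lower of tested, and the dashed lines mark the shares of all genes tested, 4.2% higher and 1.47% lower.

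The 2 lists of tubule segment markers held 1 call, where 5.67% of all genes tested were called. None of 15 proximal tubule genes passed, nor did any at limma's unadjusted p under 0.05, which 2753 of all 13523 genes tested met in either direction. The median of the list was -0.61, and the list means of the day 14 arrays (7.55 to 9.72) overlapped those of the uninjured arrays (8.88 to 10.20). Acsm2, an acyl-CoA synthetase of the proximal tubule, stood at 11.19, 11.42 and 9.66 at day 14, against 11.80, 11.81 and 12.42 in uninjured kidney (log2 -1.26, SE 0.83, adjusted p = 0.436). With the mean of this list as a covariate 867 genes were called over all genes. Of 16 distal nephron and collecting duct genes Scnn1g, a subunit of the epithelial sodium channel, was lower (log2 -1.32, SE 0.36, adjusted p = 0.0496), and its call was lost without any 1 of 5 arrays. Of 14 genes of injured or simple epithelium 3 were higher and none lower, and the median was 0.72. Lcn2, a secreted marker of tubule injury, stood at 7.91, 7.07 and 10.19 at day 14, against 4.16, 4.07 and 3.99 in uninjured kidney (log2 4.31, SE 0.63, adjusted p = 0.00179). Sox4, a developmental transcription factor, rose by 2.30 (SE 0.29) and the secreted chaperone gene Clu by 1.32 (SE 0.20). Havcr1, the kidney injury molecule of proximal tubules, stood at 8.02, 7.26 and 7.16 at day 14, against 4.95, 4.77 and 4.64 in uninjured kidney, without overlap but not called (log2 2.69, SE 0.85, adjusted p = 0.0879), and it was called when only the 6 arrays were fitted (adjusted p = 0.0098). The count of this list was 7 without array 8.

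Immediate early and dissociation stress genes, which respond quickly to stimuli that include tissue digestion, were higher in 5 of 20 cases (median 0.53). Fos, a subunit of the AP-1 factor, stood at 9.06, 9.03 and 9.71 in the day 14 arrays, against 6.36, 5.93 and 6.00 in the uninjured arrays (log2 3.17, SE 0.57, adjusted p = 0.00684). Egr2 rose by 2.33, the heat shock gene Hspa1b by 2.46, Fosl2 by 1.59 and Egr1 by 1.48, while Jun (0.75), Atf3 (0.90) and Dusp1 (0.32) did not pass. The count was 2 without array 7, 9, 14 or 15 and 3 without array 13, and the part of cell preparation in these levels was not tested.

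The growth factor lists and the endothelial list held 1 to 3 calls each, where 5.67% of all genes tested were called (4.2% higher and 1.47% lower). A single call in a list of 15 or 18 genes lies near that share. In the PDGF and TGF-beta list the target gene Tgfbi (log2 3.67, SE 0.57) and the SMAD corepressor gene Skil (1.68, SE 0.33) were higher and Bmp7, a secreted factor of kidney tubules, was lower (-0.81, SE 0.17), out of 21. The call of Skil was lost without array 14 and that of Bmp7 without array 7 or 14. The ligands Tgfb1 (0.77), Tgfb2 (0.05) and Tgfb3 (0.49) did not pass. Fgf9 was the 1 of 15 FGF signalling genes called, at 4.63, 4.32 and 4.50 at day 14, against 7.21, 7.49 and 7.15 in uninjured kidney (log2 -2.80, SE 0.37, adjusted p = 0.000901), with no overlap. In the Wnt list 1 of 18 was higher, Nkd2, a feedback inhibitor of the pathway (1.90, SE 0.26), a count that was 5 without array 8. Among 10 insulin-like growth factor genes Igf1 (1.21, SE 0.32) was higher and the binding protein gene Igfbp4 (-0.61, SE 0.14) lower, with the call of Igf1 lost in all 6 fits without 1 array and that of Igfbp4 in 5 of them. Aplnr, the apelin receptor, was the 1 higher gene of 15 in the endothelial list, at 8.66, 5.70 and 8.37 at day 14, against 3.43, 3.39 and 3.73 in uninjured kidney (log2 4.07, SE 0.88, adjusted p = 0.0186). Its call was lost without any 1 of 5 arrays, and Pecam1 (-0.45), Cdh5 (0.25) and Kdr (-0.60) did not pass.

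The lowest differences belonged to genes of no common list. Zcchc3, a nucleic acid binding protein gene, stood at 4.77, 6.74 and 4.70 in the day 14 arrays, against 8.44, 7.96 and 8.21 in the uninjured arrays (log2 -2.80, SE 0.67, adjusted p = 0.0291). Shoc2, a scaffold of the Ras pathway, fell by 2.24 on the log2 scale (SE 0.45), Klhdc7a by 2.14 (SE 0.36) and Scyl2 by 1.82 (SE 0.27). Tbx3, a T-box transcription factor gene, stood at 5.70, 6.48 and 6.43 at day 14, against 8.16, 7.74 and 7.59 in uninjured kidney (log2 -1.62, SE 0.25, adjusted p = 0.00256). Aldh2, the mitochondrial aldehyde dehydrogenase, stood at 9.70, 8.54 and 7.64 at day 14, against 10.47, 10.14 and 10.39 in uninjured kidney (log2 -1.70, SE 0.42, adjusted p = 0.0346). Both genes were lower in every day 14 array. Sorl1, Amotl1, Cert1, Ip6k2, Vps33a, Rdh14, Etnk1 and Glb1l fell by 1.80 to 1.63. Fgf9, Shoc2, Klhdc7a, Scyl2 and Tbx3 kept their calls in all 6 fits without 1 array, and the other 10 of the 15 lowest genes lost theirs in at least 3 of them. When only the 6 arrays were fitted, Shoc2 was not called by limma (adjusted p = 0.0802). None of the 15 had another probe set called lower, and Klhdc7a, Ip6k2 and Glb1l had no other probe set.

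The metabolic and stress lists held between 0 and 3 calls each, where 5.67% of all genes tested were called (4.2% higher and 1.47% lower). Etfa, which passes electrons from fatty acid oxidation to the respiratory chain, was the 1 of 18 fatty acid oxidation genes called, at 8.90, 9.04 and 8.38 at day 14, against 9.96, 10.16 and 10.79 in uninjured kidney (log2 -1.53, SE 0.30, adjusted p = 0.0105). None of 21 hypoxia and glycolysis genes was called (2 higher and 4 lower at limma's unadjusted p under 0.05), nor any of 17 p53 targets and cell cycle inhibitors (3 higher and 1 lower). That unadjusted threshold was met by 2753 of all 13523 genes tested, in either direction. Mt1, a metal-binding metallothionein, rose by log2 1.86 (SE 0.24) and the thioredoxin gene Txn1 by 0.98 (SE 0.18), out of 19 oxidative stress genes. In the endoplasmic reticulum list Sec61b (1.48) and Atf4 (0.97) were higher and Dnajc3 (-0.65) lower, out of 22, with the last 2 calls lost without any 1 of 5 and 3 arrays in that order. Of 28 cell cycle genes only Ccnd1 was called, and it was lower (log2 -0.85, SE 0.18, adjusted p = 0.0153), a call lost without array 9, 13 or 14. Mki67, the proliferation marker, stood at 5.30, 6.83 and 8.13 at day 14 and at 6.53, 6.13 and 6.09 in uninjured kidney (adjusted p = 0.757), spanning the uninjured levels.

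To ask what was particular to the late time, day 14 was set directly against day 3 and day 7 after folic acid (3 arrays each), tests that share the day 14 arrays with the comparison above. Against day 7, 7 genes were called (0.0518%), 1 higher (0.00739%) and 6 lower (0.0444%), but leaving out day 7 array 4 or 5 gave 39 or 2 calls, and leaving out day 14 array 7 or 9 gave 3 or 50. Against day 3, 412 genes were called (3.05%), 165 higher (1.22%) and 247 lower (1.83%), but leaving out day 3 array 1, 2 or 3 gave 223, 155 or 199. For the 568 genes higher at day 14, the median difference from uninjured kidney was 1.43 at day 3, 1.46 at day 7 and 1.42 at day 14, all against the same 3 uninjured arrays. For the 199 lower genes it was -0.86 at day 3, -0.86 at day 7 and -0.87 at day 14. Both sets were chosen by the day 14 calls against those uninjured arrays, so these medians describe the sets and test nothing about time.

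Tubule markers also differed between these days. The proximal tubule mean was 7.55 to 9.72 in the day 14 arrays, against 6.48 to 6.73 in the day 3 arrays, and 1 of its 15 genes was higher (median 2.15). Of 16 distal nephron and collecting duct genes 7 were higher at day 14 than at day 3 and none lower (median 1.82). With the proximal tubule mean fitted beside the groups, 75 genes differed between day 14 and day 3 in place of 412. The means of these days do not overlap, so this fit extrapolates across the gap, and the part of tubule content was not tested.

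Class II genes stood higher at day 14 than at day 3. H2-Aa averaged 6.61 in uninjured kidney, 7.20 at day 3, 10.75 at day 7 and 11.02 at day 14, and the difference of day 14 from day 3 was log2 3.83 (adjusted p = 3e-07). Day 3 was already above uninjured kidney for this gene (log2 0.59, adjusted p = 0.035). H2-Ab1, Cd74 and H2-Eb1 were higher at day 14 than at day 3 by 4.59, 4.55 and 3.91, and none of the 4 was called between day 14 and day 7. Of the 9 class II genes 5 were higher at day 14 than at day 3, and of the 27 macrophage and dendritic cell genes 9 were, with none lower in either list. Beside the proximal tubule mean, in the fit that extrapolates, these counts were 4 and 7. Fos was higher at day 14 than at day 3 by 3.40, and Mmp12 by 2.71. Aplnr was near its uninjured level at day 3 (a mean of 3.45 at day 3 and 3.51 in uninjured kidney) and higher at day 14 than at day 3 by 4.13.

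Part of the matrix genes stood lower at day 14 than at day 3. Of the 16 collagens 6 were lower at day 14 than at day 3 and none higher, with a median of -1.13, and Col6a1 and Col6a2 fell by 1.76 and 1.82 on the log2 scale. Beside the proximal tubule mean none of the 16 was called lower by limma (7 at an unadjusted p under 0.05), with a median of -0.63. Over all genes, 1478 had such an unadjusted p in that fit, in either direction. That fit extrapolates between days whose tubule means do not overlap, so it cannot tell tubule content from the day. Acta2 averaged 8.29 in uninjured kidney, 12.08 at day 3, 11.05 at day 7 and 10.71 at day 14, and was lower at day 14 than at day 3 by log2 -1.38. Clca3a1, a member of the chloride channel accessory family, stood at 10.92, 10.25 and 10.21 at day 3, 8.48, 9.01 and 10.88 at day 7 and 5.66, 6.57 and 6.26 at day 14. It was lower at day 14 than at day 3 (log2 -4.29) and than at day 7 (-3.29), and its probe set was not tested for signal from closely related family members. The anion transporter gene Slco2b1 and Fbln5 fell to means of 7.19 and 7.38 at day 14, against 10.72 and 10.65 at day 3. In these 3 genes the uninjured means were lower still, at 3.43, 4.54 and 5.52. Col1a1 (log2 -0.88, adjusted p = 0.0546), Cdh11 (-0.46, adjusted p = 0.467) and Fn1 (-0.31, adjusted p = 0.723) did not pass between day 14 and day 3.

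**Figure D5:**
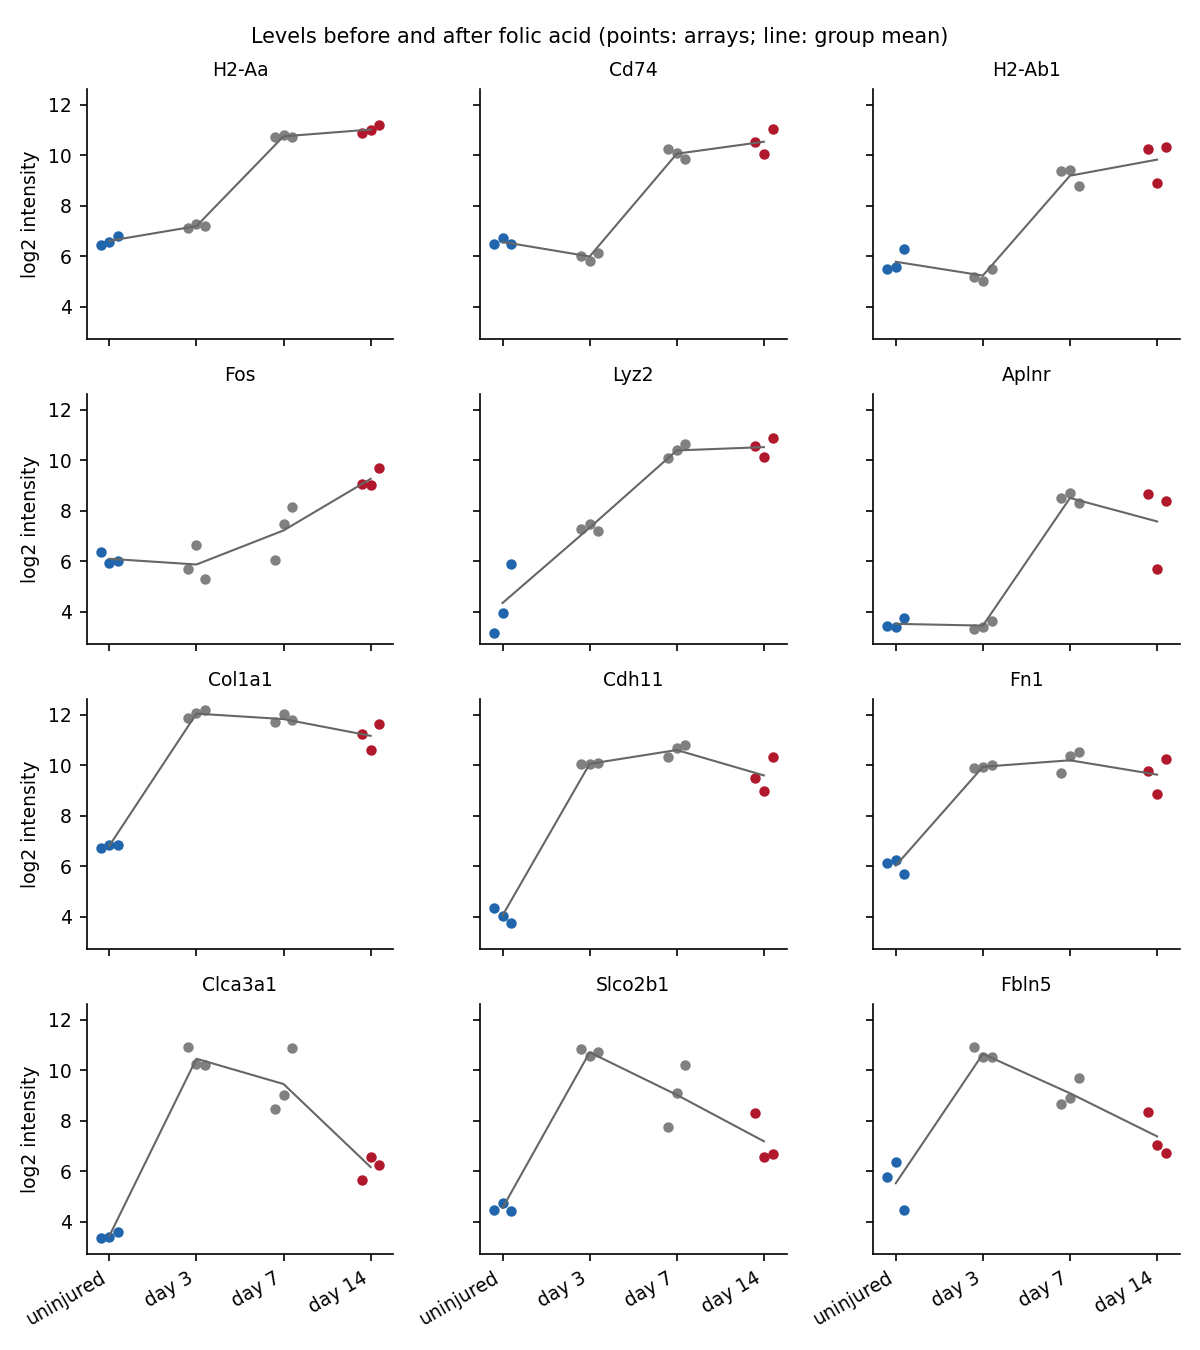
Log2 intensity of 12 genes in uninjured kidney and at days 3, 7 and 14 after folic acid, with a point for each array and a line through the group means. Class II genes Cd74 and H2-Ab1 lie at or slightly below uninjured levels at day 3, H2-Aa lies slightly above them (log2 0.59), and all 3 are high at days 7 and 14, while Clca3a1, Slco2b1 and Fbln5 are highest at day 3.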

How the data were processed

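The deposited table holds log2 intensities for 45141 probe sets on each of 15 arrays. The authors obtained these log2 values by RMA, as the submitters' processing notes say, where affy and limma are also named, with no version. They were used without further normalization and ran from 2.43 to 13.15. No detection call was used, so differences against dim values may be compressed, and the number of arrays limits the precision. No date or batch was used here.

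The platform annotation named 1 gene for 28898 probe sets, several for 551 and none for 15692 used here. The probe set with the highest mean over the 15 arrays stood for each of 17097 genes. Testing required a level over the 40th percentile of the array in 3 or more arrays and left 13523 genes. The 15 arrays were modelled together as 5 groups with limma 3.58.1 in R 4.3.3 (lmFit, eBayes), with a 2-sided moderated test and Benjamini-Hochberg adjustment over the genes tested. Tables and plots were made with Python 3.11.15, pandas 2.3.3 and matplotlib 3.10.9. On simulated data the fit of day 14 minus uninjured over 13523 genes recovered 47% of 100 genes changed by log2 1 and 82% of 100 changed by log2 2, with 6 false calls.

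Named genes were the 20 highest and 15 lowest differences among called genes whose arrays did not overlap, without provisional symbols, up to 5 called genes with the smallest p of each list or 2 genes where none was called, 14 genes of interest to kidney scarring, and up to 6 genes each way that differed most from day 7 or day 3. Other list members are given as examples chosen after their values were seen. The comparison, the 38 lists and the rule were chosen with earlier results of these data known. Listed genes without a probe set naming them alone were not analysed here. Alternatives were other normalizations, variance models, filters, thresholds, probe set means, covariates and leaving out each array.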

Additional observations from a re-analysis of the deposited data

Results flagged for a closer look

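These genes were called at day 14 against uninjured kidney and also differed between day 14 and an earlier day by limma's direct test, which shares the day 14 arrays. Class II genes were higher at day 14 than at day 3, H2-Aa by log2 3.83, H2-Ab1 by 4.59, Cd74 by 4.55 and H2-Eb1 by 3.91. Aplnr was higher at day 14 than at day 3 by 4.13 and Fos by 3.40. Epb41l4b was higher at day 14 than at day 7 by 1.03 and than at day 3 by 1.02. Nkd2 was lower at day 14 than at day 7 (log2 -1.95) and higher than at day 3 (1.33). Clca3a1 was lower at day 14 than at day 7 (-3.29) and than at day 3 (-4.29), and Bicc1 was lower than at day 7 (-1.15). Slco2b1 (-3.53), Fbln5 (-3.27), Cyp1b1 (-2.65), Matn2 (-2.64) and Slc43a3 (-2.52) were lower at day 14 than at day 3. The differences of Nkd2, Epb41l4b, Clca3a1 and Bicc1 from day 7 rest on a comparison with 7 calls, which had 0 calls with array weights.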

How the results depend on the processing

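The 767 calls of day 14 against uninjured kidney became 405 with only the 6 arrays compared, 263 at an adjusted p under 0.01 and 11 with the macrophage list mean as a covariate, 9 of them shared. They ran from 350 to 892 in the fits without 1 array. Of these calls 199 were lower, against 352 after quantile normalization and 62 with only the 6 arrays. The 116 calls among listed genes became 76 with the 6 arrays and 7 with the macrophage covariate, and ran from 74 to 151 without 1 array. Against day 7 the 7 calls became 0 with array weights, 0 with only the 6 arrays and 0 with the proximal tubule covariate, where 880, 733 and 1009 genes had an unadjusted p under 0.05 in limma. They were 4 without a filter, 17 with the macrophage covariate and 1 at 0.01, and ran from 2 to 50 without 1 array. Against day 3 the 412 calls became 161 with the 6 arrays, 75 with the proximal tubule covariate and 110 at 0.01, and ran from 155 to 449 without 1 array. With the macrophage covariate Loxl1 (log2 -0.02), Lama2 (-0.69), C1qc (-0.22), C1qb (-0.84), Cxcl14 (-0.18) and Fosl2 (-0.17) turned negative and Scnn1g (0.35) positive, and none of these passed. C1qb and C1qc are members of the macrophage list, so that fit adjusts them in part for themselves. The same holds for the other members of that list among the listed and named genes. Of 114 called genes among the 136 named, 106 lost their call with that covariate and 38 with only the 6 arrays. Dcn, Loxl1, Serpinf1, Islr, Cxcl14, Ctsd and Shoc2 were among those lost with only the 6 arrays. The median of the FGF list was 0.03 as deposited and -0.04 after quantile normalization. The cause of these shifts was not tested. No paired analysis was possible because the running numbers of the arrays are not shared between groups. Groups of 3 arrays with no detection calls limit what can be said of dim genes.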

Other observations

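Cytosolic ribosomal protein genes stood higher at day 14. The group was chosen after its values were seen, by gene symbol, and close pseudogene copies may share its probe sets. Of 70 tested 47 were called higher (67.1%) and 0 lower, where 4.2% of all genes tested were higher and 1.47% lower. None of the 70 was lower at limma's unadjusted p under 0.05 either. The median difference was log2 0.94, or 0.74 after quantile normalization and 0.99 after median centring. The median level was 11.04, 10.29 and 10.85 in day 14 arrays 7, 8 and 9, against 9.80, 9.76 and 9.58 in uninjured arrays 13, 14 and 15, without overlap. Rplp1 rose by 2.53 (SE 0.29, adjusted p = 0.000372) and Rplp2 by 2.29 (SE 0.21, adjusted p = 6.82e-05), both acidic proteins of the ribosomal stalk. Against the same uninjured arrays the median difference was 1.31 at day 3, 1.00 at day 7 and 0.94 at day 14. Rpl39l, a copy of Rpl39 known from testis, was not called (log2 -0.26, adjusted p = 0.278).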
